A study of Mus musculus with 12 samples.

Results

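The genes described here are the 40 genes of autophagy and the lysosome that were chosen by name from the 55401 genes of the count table, and all 40 were found in it. They comprise the ULK1 initiation kinase complex (5 genes), the PI3KC3 lipid kinase complex (4 genes), the machinery for membrane supply and PI3P binding (5 genes), the conjugation machinery with the Atg4 proteases (11 genes), the Atg8 family (5 genes), cargo receptors (3 genes), the transcription factors Tfeb and Tfe3 (2 genes) and lysosomal proteins (5 genes). RNA was sequenced from Pax7-ZsGreen+ satellite cells, the stem cells of skeletal muscle, which were sorted from hind limb muscle of adult mice. All mice carried CXCR4 FL/FL and Pax7-ZsGreen and received 80 mg/kg tamoxifen on 5 days; the knockout (KO) mice carried in addition Pax7-creERT2, which deletes exon 2 of Cxcr4 in cells that express Pax7, and the wild type (WT) mice carried no cre. Quiescent cells were sequenced directly after the sort (4 WT and 4 KO libraries) and activated cells after overnight culture (2 WT and 2 KO libraries). The labels do not say whether libraries of a group came from different animals, so p-values measure the spread between these libraries.

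Autophagy encloses cytoplasm in a double membrane, the autophagosome, and delivers it to the lysosome for breakdown. The ULK1 kinase complex starts the process, the PI3KC3 complex makes the lipid PI3P, and proteins with PI3P binding and lipid transfer activity help the membrane grow. A ubiquitin-like conjugation system then attaches Atg8 proteins (the LC3 and GABARAP subfamilies) to the membrane, where cargo receptors such as SQSTM1 dock. TFEB and TFE3 are transcription factors that drive many lysosomal and autophagy genes through E-box-like sites. In satellite cells autophagy is known for its part in the upkeep of quiescence and in the supply of nutrients to cells that leave it.

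Quiescent libraries held 12775593 to 23717013 counts and activated libraries 3172164 to 5427280, and the 40 genes took 0.513% to 0.678% of the counts in quiescent and 0.269% to 0.548% in activated libraries. Cxcr4, the targeted gene, was at 61.2, 59.1, 89.6 and 112 CPM (a count relative to its TMM-adjusted library total) in quiescent WT, 17.6, 21.2, 12.5 and 17.1 in quiescent KO, 33.3 and 14.4 in activated WT, and 5.39 and 13.7 in activated KO libraries. The genotypes did not overlap in either state. The activated libraries stood apart in other measures. The ribosomal RNA gene CT010467.1 took 11.5% to 40.3% of their counts against 0.295% to 0.807% in quiescent libraries, Xist was at 451 to 817 against 1.2 to 7.17 CPM, and Y-linked genes summed to 0 to 2.51 against 358 to 660 CPM. Culture and the sex of the mice, as far as these genes report it, cannot be told apart in any comparison of activated with quiescent cells. The lists of cell markers also moved with the state: summed levels were 5140 to 8550 CPM in quiescent and 2320 to 3520 CPM in activated libraries for 9 satellite cell genes, 133 to 650 against 58 to 108 CPM for 15 macrophage and blood cell genes, and 259 to 884 against 6300 to 15500 CPM for 9 muscle fibre genes (7 of 9, 6 of 15 and 8 of 8 tested genes passed the test in both genotypes). Tyrobp and Cd52, 2 of the blood cell genes, were at 0 counts in both activated WT libraries. Endothelial genes ranged from 293 to 1330 and from 116 to 779 CPM, and fibroadipogenic progenitor genes from 823 to 3840 and from 355 to 815 CPM. Pax7 was detected in all 4 groups (group means of 392, 247, 109 and 100 CPM in quiescent WT, quiescent KO, activated WT and activated KO cells). The bulk libraries cannot tell fewer cells of a type from less RNA per cell.

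The genes spanned a wide range of levels, and Sqstm1 stood at their head. Per kilobase of exon, Sqstm1, the ubiquitin-binding cargo receptor p62, had the highest mean level of the 40 genes in each group, from 819 ± 238 RPKM in quiescent WT (SD, n = 4) to 526 ± 21.7 in activated KO cells (SD, n = 2). It supplied 40.4% to 49.4% of the summed CPM of the 40 genes in a library. The Atg8 genes Map1lc3a, Gabarapl1 and Gabarap followed in quiescent WT cells at 151 ± 46.1, 118 ± 43.3 and 106 ± 11.2 RPKM (SD, n = 4), and neighbours in this order differed by less than the larger SD of the pair. The lowest was Atg4a, an Atg8-processing protease, at 0.274 ± 0.236 RPKM in quiescent WT cells, with between 1 and 32 counts in any library. A near-identical copy, Atg4a-ps, held counts equal to 12.6% of those of Atg4a over all libraries and up to 100% in a library. Reads of Atg4a could thus be split. In quiescent WT cells 15 genes had a mean of 10 RPKM or more, 24 had 1 to 10 RPKM, and 1 had less than 1 RPKM. All 40 genes passed the filter on low counts.

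**Figure D1:**
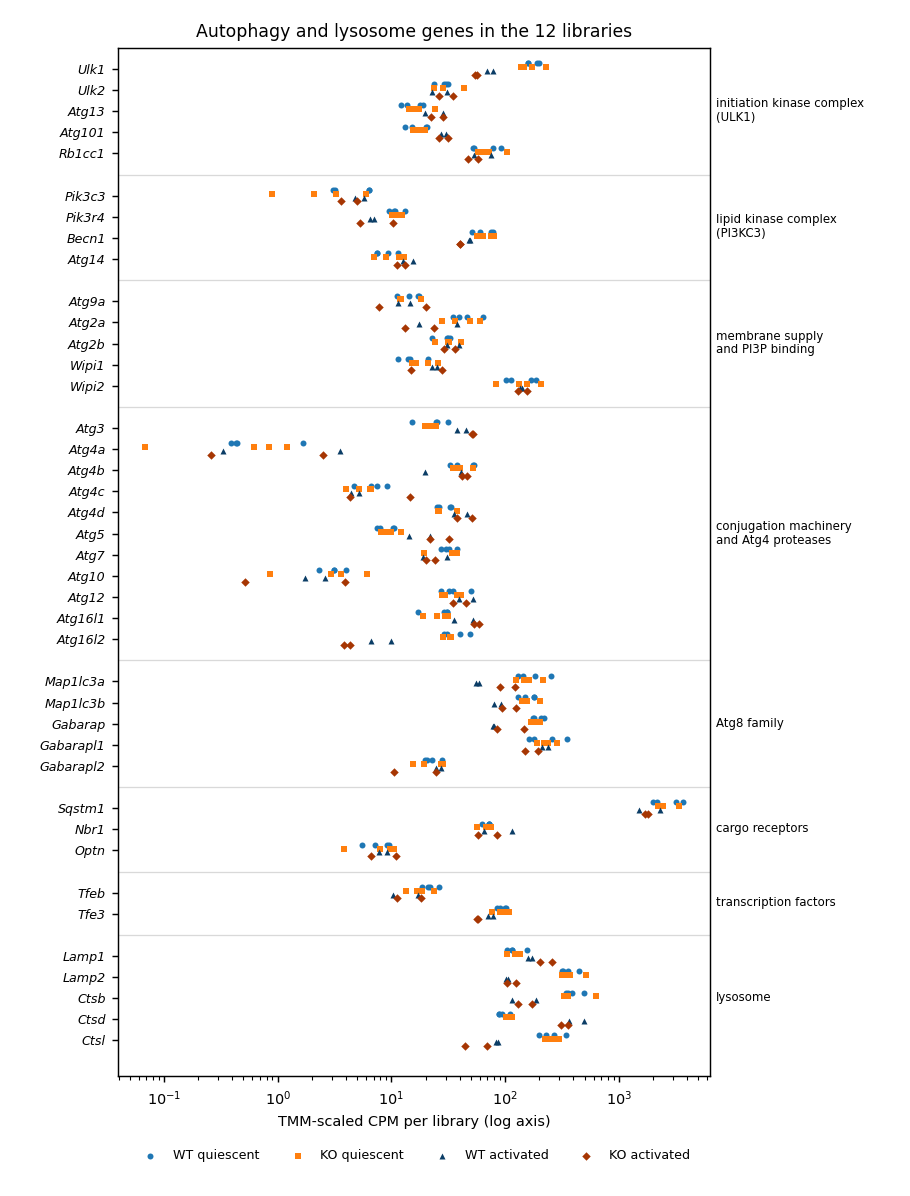
TMM-scaled CPM (log axis) of the 40 genes in each of the 12 libraries, with 1 point per library, the groups marked by color and shape, and the genes ordered by role. Sqstm1 lies at 1520 to 3670 CPM, and the activated libraries lie apart from the quiescent ones for Ctsd (308 to 490 against 88.9 to 115 CPM) and Lamp2 (102 to 124 against 315 to 515 CPM), among others.

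Activation was the contrast in which these genes changed. In WT cells 12 of the 40 genes passed the test (edgeR quasi-likelihood F test, Benjamini-Hochberg adjusted p under 0.05 over 25771 genes), 4 higher and 8 lower (11.5% and 18.3% of all genes), and in KO cells 14 passed, 6 higher and 8 lower (13.3% and 20.4% of all genes). That is 30% and 35% of the genes, against 29.8% and 33.7% of all genes tested, so the share that changed was near that of all genes. Without any test, the activated and quiescent libraries did not overlap for 22 genes in WT cells (55%, against 56% of all genes) and for 19 in KO cells (47.5%, against 54.4%). The median log2 fold change over the 40 genes was -0.10 in WT and -0.07 in KO cells, while over all genes it was -0.92 and -0.96. Changes in both genotypes were seen for Ctsd, Atg5, Atg3 and Atg101, which rose, and for Atg16l2, Ctsl, Lamp2, Ulk1 and Ctsb, which fell; over all genes 9.48% rose and 14% fell in both. Of these, Ctsd, Atg16l2, Ctsl, Lamp2 and Ulk1 stayed past the test in both genotypes in all 22 alternative analyses. With a fold change over 2 required as well, 9 and 10 of the genes passed, against 26.8% and 30.3% of all genes. On counts simulated for 25771 genes, the comparison of states in WT cells recovered 7.46% of 2-fold and 78.8% of 4-fold changes. Genes that did not pass are thus not shown to be unchanged.

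In all genes with a promoter sequence, the 250 bases before the RefSeq transcription start (build GRCm38.p6) were searched for 2 motifs. They were CACGTG, the E-box core of the sites that TFEB and TFE3 are known to bind, and the longer TCACGTGA that contains it. Both motifs read the same on either strand. A RefSeq promoter sequence was available here for 33 of the 40 genes, not for Map1lc3a, Becn1, Ctsb, Pik3c3, Rb1cc1, Atg16l1 and Atg12. CACGTG lay in 6 of the 33 (18.2%), namely Atg3, Atg5, Atg7, Ctsd, Ctsl and Lamp1, and in 1854 of 27025 genes (6.86%). TCACGTGA lay in Atg3 and Ctsd (6.06%) and in 245 of all genes (0.907%). Genes of both directions held it: Ctsl, which fell, holds CACGTG as do Ctsd, Atg3 and Atg5, which rose. The promoters of 3 genes with the motif and 2 without it are printed here to show these letters in their context. That of Ctsl, whose RefSeq window lies inside the GENCODE gene model, is not printed. Capitals mark CACGTG, each promoter reads 5′ to 3′ on the strand of the gene and ends at the base before the RefSeq start.

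Ctsd, chr7:142387828-142388077, minus strand: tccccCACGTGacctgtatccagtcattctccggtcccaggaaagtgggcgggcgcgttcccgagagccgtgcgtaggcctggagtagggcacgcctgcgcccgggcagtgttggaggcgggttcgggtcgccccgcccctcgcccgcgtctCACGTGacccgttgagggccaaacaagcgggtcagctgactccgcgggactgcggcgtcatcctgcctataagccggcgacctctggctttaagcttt
Atg3, chr16:45158579-45158828, plus strand: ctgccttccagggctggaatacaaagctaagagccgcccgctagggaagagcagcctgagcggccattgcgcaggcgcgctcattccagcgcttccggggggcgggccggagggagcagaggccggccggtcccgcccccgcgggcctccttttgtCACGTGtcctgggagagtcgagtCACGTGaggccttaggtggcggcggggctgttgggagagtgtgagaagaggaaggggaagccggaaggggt
Atg5, chr10:44268089-44268338, plus strand: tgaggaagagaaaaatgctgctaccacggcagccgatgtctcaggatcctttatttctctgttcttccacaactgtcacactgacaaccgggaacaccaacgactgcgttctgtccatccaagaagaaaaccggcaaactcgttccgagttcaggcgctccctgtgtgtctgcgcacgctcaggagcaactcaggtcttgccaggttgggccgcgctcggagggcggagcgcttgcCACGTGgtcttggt
Lamp2, chrX:38456461-38456710, minus strand: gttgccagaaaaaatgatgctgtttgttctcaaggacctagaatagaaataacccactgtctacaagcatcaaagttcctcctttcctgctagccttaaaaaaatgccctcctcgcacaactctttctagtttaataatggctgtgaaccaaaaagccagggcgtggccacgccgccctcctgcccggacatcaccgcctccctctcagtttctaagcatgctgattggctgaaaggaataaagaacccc
Ulk1, chr5:110810082-110810331, minus strand: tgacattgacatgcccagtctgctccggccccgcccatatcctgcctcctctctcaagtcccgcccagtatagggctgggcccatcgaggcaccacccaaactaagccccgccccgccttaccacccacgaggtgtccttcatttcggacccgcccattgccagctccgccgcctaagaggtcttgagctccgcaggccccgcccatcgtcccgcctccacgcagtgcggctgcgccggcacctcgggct

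Ctsd and Atg3 held the motif at 2 places each, Atg5 at 1, and the windows of Lamp2 and Ulk1 did not hold these letters. The window of Atg101, which rose, did not hold them either. A match is a description of the sequence, and binding was not measured in these data. The first bases of the GENCODE models of Ctsd, Atg3 and Ulk1 lie within the printed windows. The GENCODE model of Ctsd begins at base 142388038 on the minus strand, so most of its window lies inside the model. That part holds the TCACGTGA match, with CACGTG at 98 bases before the RefSeq start. The other CACGTG of Ctsd, at 245 bases, lies outside the model.

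The lysosomal genes moved in opposite directions. Ctsd encodes the aspartic protease cathepsin D (chr7:142375911-142388038, minus strand, GRCm38). Its level was 88.9, 111, 89.1 and 93.2 CPM in quiescent WT, 115, 102, 115 and 105 in quiescent KO, 490 and 365 in activated WT, and 308 and 358 in activated KO libraries. Every activated library was above every quiescent library. The rise was 4.48-fold in WT (log2 fold change 2.16 ± 0.22 SE, adjusted p = 6.17e-07) and 3.06-fold in KO cells (1.61 ± 0.22, adjusted p = 1.46e-05). Its exons share 34.37% of their bases with Gm49369 on the same strand, which was listed at 0 counts in all libraries.

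The cysteine proteases cathepsin L and cathepsin B fell. Ctsl (chr13:64359337-64370890, minus strand) was at 200, 231, 268 and 342 CPM in quiescent WT, 297, 250, 224 and 272 in quiescent KO, 86.1 and 82.8 in activated WT, and 44.4 and 68.9 in activated KO libraries. The states did not overlap, and both activated KO values lay below both activated WT values. Ctsl was 3.08-fold lower in WT (-1.62 ± 0.29, adjusted p = 0.000224) and 4.6-fold lower in KO cells (-2.20 ± 0.30, adjusted p = 1.16e-05). Ctsb (chr14:63122462-63145923, plus strand) was at 347, 361, 386 and 498 CPM in quiescent WT, 359, 330, 361 and 632 in quiescent KO, 187 and 116 in activated WT, and 130 and 173 in activated KO libraries. All 4 activated values lay below all 8 quiescent values. It was 2.62-fold lower in WT (-1.39 ± 0.32, adjusted p = 0.00248) and 2.77-fold lower in KO cells (-1.47 ± 0.32, adjusted p = 0.00142), but the call in WT was lost without activated WT replicate 2 (-1.03, adjusted p = 0.0896). The high quiescent KO value belonged to replicate 4, in which the macrophage and blood cell marker genes summed to 650 CPM against 133 to 287 CPM in the other quiescent libraries. The satellite cell genes were also highest in that library, at 8550 CPM against 5140 to 8010 CPM in quiescent WT. The macrophage and blood cell marker genes were also lower in the activated libraries, as given above, and their part in the fall of the proteases was not tested.

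The 2 LAMP proteins, which line the lysosomal membrane, differed. Lamp2 (chrX:38401357-38456454, minus strand) was at 315, 325, 360 and 444 CPM in quiescent WT, 370, 320, 332 and 515 in quiescent KO, 106 and 102 in activated WT, and 104 and 124 in activated KO libraries. The activated values sat close together, far below the quiescent ones. It was 3.46-fold lower in WT (-1.79 ± 0.28, adjusted p = 6.54e-05) and 3.37-fold lower in KO cells (-1.75 ± 0.28, adjusted p = 7.07e-05). Lamp1 was at 114, 155, 105 and 116 CPM in quiescent WT, 122, 104, 129 and 136 in quiescent KO, 172 and 158 in activated WT, and 201 and 260 in activated KO libraries. It lay higher in all activated libraries, by little in WT cells. Lamp1 rose 1.87-fold in KO cells (0.91 ± 0.23, adjusted p = 0.00557; 0.127 without activated KO replicate 2) and was 1.34-fold higher in WT cells without passing the test (0.43 ± 0.24, adjusted p = 0.175). Lamp2, Tfe3 and Atg4a are the 3 X-linked genes of the 40, and the quiescent and activated libraries differ in Xist and Y-linked counts as given above.

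**Figure D2:**
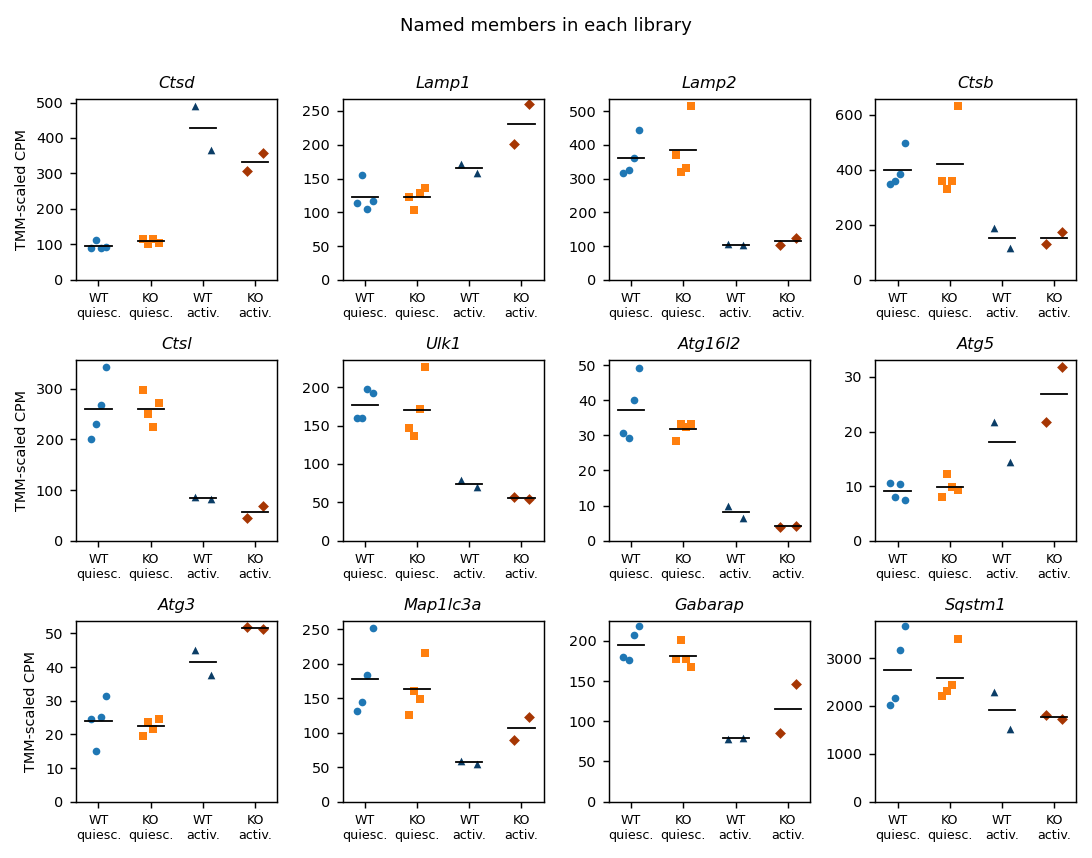
TMM-scaled CPM of 12 of the genes in each library (points) with the group mean (line), in quiescent (quiesc.) and activated (activ.) WT and KO cells, each axis starting at 0. Ctsd, Atg5 and Atg3 are higher and Lamp2, Ctsb, Ctsl, Ulk1 and Atg16l2 lower in all 4 activated libraries than in all 8 quiescent ones.

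In the initiation complex the kinase Ulk1 fell, while the subunit Atg101 rose by calls at the threshold. Ulk1, the kinase itself (chr5:110784488-110810097, minus strand), was at 160, 160, 198 and 192 CPM in quiescent WT, 147, 137, 172 and 227 in quiescent KO, 78.9 and 69.6 in activated WT, and 57 and 54.8 in activated KO libraries. Activated libraries lay well below all quiescent ones. The fall was 2.39-fold in WT (-1.26 ± 0.26, adjusted p = 0.00116) and 3.06-fold in KO cells (-1.61 ± 0.27, adjusted p = 0.000119). Atg101, which binds Atg13 in the complex (chr15:101284272-101290945, plus strand), was at 13.2, 20.2, 15.3 and 20.6 CPM in quiescent WT, 16.9, 17.5, 19.9 and 15.5 in quiescent KO, 30.5 and 27.6 in activated WT, and 31.3 and 26 in activated KO libraries. The states were apart by a small gap. Atg101 rose 1.68-fold in WT (0.75 ± 0.27, adjusted p = 0.0445) and 1.64-fold in KO cells (0.72 ± 0.27, adjusted p = 0.0489), calls that lay at the threshold: the adjusted p was 0.165 and 0.156 with scaling by library size alone. Ulk2, Atg13 and Rb1cc1 (the FIP200 scaffold) did not pass, at log2 fold changes of -0.10 to 0.60 in WT and -0.52 to 0.50 in KO cells.

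Of the lipid kinase complex, Becn1, the Beclin 1 subunit, was 1.36-fold lower in WT (-0.44 ± 0.26, adjusted p = 0.186) and fell 1.72-fold in KO cells (-0.78 ± 0.26, adjusted p = 0.0257; 0.175 without activated KO replicate 2). Its exons share 43.93% of their bases with Cntd1 on the opposite strand. Pik3c3 (the catalytic subunit), Pik3r4 and Atg14 passed in neither genotype. Among the membrane supply genes, Atg2a, a lipid transfer protein, was 1.62-fold lower in WT (-0.70 ± 0.37, adjusted p = 0.159) and fell 2.36-fold in KO cells (-1.24 ± 0.39, adjusted p = 0.0188; 0.259 without activated KO replicate 2). Its paralog Atg2b, the lipid scramblase gene Atg9a and the PI3P-binding genes Wipi1 and Wipi2 passed in neither genotype, with log2 fold changes of -0.21 to 0.65 in WT and -0.12 to 0.13 in KO cells.

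In KO cells the conjugation machinery held the change of greatest size among the 40 genes, the fall of Atg16l2. In WT cells the rise of Ctsd (log2 fold change 2.16) was slightly larger. Atg16l2, a paralog of the conjugation scaffold Atg16l1 (chr7:101263034-101302251, minus strand), was at 30.8, 29.3, 40.1 and 49.2 CPM in quiescent WT, 28.5, 33.1, 32.5 and 33.3 in quiescent KO, 9.97 and 6.57 in activated WT, and 3.85 and 4.33 in activated KO libraries. Levels were low in all activated libraries (61 and 15 counts in WT, 15 and 19 in KO) and lowest in the KO. It fell 4.39-fold in WT (-2.13 ± 0.32, adjusted p = 4.85e-05) and 7.76-fold in KO cells (-2.96 ± 0.35, adjusted p = 2.74e-06). Atg16l1 itself was 1.63-fold higher in WT (0.70 ± 0.29, adjusted p = 0.0724) and rose 2.13-fold in KO cells (1.09 ± 0.28, adjusted p = 0.00586; 0.0668 without activated KO replicate 1). Per kilobase, Atg16l2 had the higher mean of the 2 paralogs in quiescent WT cells (4.41 ± 1.09 RPKM against 2.8 ± 0.683 for Atg16l1, SD, n = 4) and the lower in activated KO cells (0.483 ± 0.0402 against 5.87 ± 0.456, SD, n = 2).

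Atg5, the conjugation partner of Atg12 (chr10:44268358-44364291, plus strand), was at 10.6, 8.02, 10.4 and 7.47 CPM in quiescent WT, 8.09, 12.2, 9.89 and 9.21 in quiescent KO, 21.7 and 14.4 in activated WT, and 21.8 and 31.9 in activated KO libraries. No activated value reached down to the quiescent range. It rose 2-fold in WT (1.00 ± 0.31, adjusted p = 0.0206; 0.332 without activated WT replicate 1) and 2.74-fold in KO cells (1.45 ± 0.31, adjusted p = 0.00106; 0.0511 without activated KO replicate 2). Atg3, the enzyme that transfers Atg8 proteins to lipid (chr16:45158785-45188538, plus strand), was at 24.7, 15.2, 25.1 and 31.5 CPM in quiescent WT, 19.6, 23.7, 21.6 and 24.6 in quiescent KO, 45.1 and 37.7 in activated WT, and 51.9 and 51.3 in activated KO libraries. The activated KO values were the highest. It rose 1.72-fold in WT (0.78 ± 0.27, adjusted p = 0.0362; 0.235 without activated WT replicate 1) and 2.3-fold in KO cells (1.20 ± 0.27, adjusted p = 0.00173). Atg7 (the activating enzyme), Atg10, Atg12 and the Atg4 proteases Atg4a, Atg4b, Atg4c and Atg4d passed in neither genotype.

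Of the Atg8 family, 3 of 5 genes fell in WT cells, where 18.3% of all genes fell. None passed in KO cells (20.4% of all genes fell), where all 5 estimates were below 0 (-0.65 to -0.36, the lowest adjusted p being 0.0527). For none of the 5 did the activation response differ between the genotypes by the test (lowest adjusted p = 0.676 by edgeR, for Map1lc3a). Map1lc3a was at 131, 145, 184 and 252 CPM in quiescent WT, 125, 161, 148 and 216 in quiescent KO, 58.6 and 55.2 in activated WT, and 89.4 and 123 in activated KO libraries. The activated KO values lay between the activated WT and the quiescent ones. It fell 3.13-fold in WT cells (-1.65 ± 0.32, adjusted p = 0.000508) and was 1.53-fold lower in KO cells (-0.61 ± 0.30, adjusted p = 0.113). Gabarap was at 180, 176, 208 and 218 CPM in quiescent WT, 177, 201, 178 and 168 in quiescent KO, 78.6 and 79.3 in activated WT, and 85 and 146 in activated KO libraries. Of the activated KO libraries, one was near the WT level and the other near the quiescent range. Gabarap fell 2.48-fold in WT cells (-1.31 ± 0.26, adjusted p = 0.000764) and was 1.57-fold lower in KO cells (-0.65 ± 0.25, adjusted p = 0.0527). That miss was narrow: Gabarap passed in KO cells in 8 of 22 alternatives, among them DESeq2 (adjusted p = 0.0201), scaling by library size (0.0407) and leaving out activated KO replicate 2 (0.0306).

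Map1lc3b, which encodes the LC3B protein used as an autophagosome marker, was at 130, 151, 180 and 178 CPM in quiescent WT, 202, 140, 157 and 149 in quiescent KO, 92.3 and 79.7 in activated WT, and 94.3 and 125 in activated KO libraries. All activated values were lower than the quiescent ones. It fell 1.85-fold in WT (-0.89 ± 0.26, adjusted p = 0.0134), a call lost without activated WT replicate 1 (0.0849) or 2 (0.185), and was 1.48-fold lower in KO cells (-0.56 ± 0.25, adjusted p = 0.0909; 0.044 by DESeq2). Near-identical pseudogenes of Map1lc3b held up to 7.63% of its own counts in a library (Gm6055), and a pseudogene of Gabarapl2 held up to 17.1% (Gm3724), so reads of these genes could be split. Gabarapl1 and Gabarapl2 passed in neither genotype.

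None of the 3 cargo receptors passed the test on activation. Sqstm1 was at 2010, 2160, 3160 and 3670 CPM in quiescent WT, 2210, 2310, 2430 and 3390 in quiescent KO, 2300 and 1520 in activated WT, and 1820 and 1720 in activated KO libraries. The states overlapped in WT cells and lay apart in KO cells. Sqstm1 was 1.44-fold lower in WT (-0.53 ± 0.31, adjusted p = 0.196) and 1.46-fold lower in KO cells (-0.55 ± 0.31, adjusted p = 0.17). Nbr1 and Optn, receptors for ubiquitinated cargo, had log2 fold changes of 0.37 and 0.11 in WT and 0.08 and 0.14 in KO cells. Tfeb was at 18.5, 21.9, 21.2 and 26.1 CPM in quiescent WT, 16.8, 13.4, 23.6 and 18.7 in quiescent KO, 10.3 and 17.1 in activated WT, and 11.3 and 18.3 in activated KO libraries. Both activated WT values lay below the quiescent WT values, and the KO values overlapped. Tfeb was 1.64-fold lower in WT (-0.71 ± 0.34, adjusted p = 0.117) and 1.22-fold lower in KO cells (-0.29 ± 0.33, adjusted p = 0.48).

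Tfe3 was at 90.3, 84.4, 102 and 100 CPM in quiescent WT, 89.4, 76.2, 97.9 and 108 in quiescent KO, 78.9 and 71.4 in activated WT, and 57.3 and 56.1 in activated KO libraries. It was lower in every activated library than in every quiescent library of its genotype. The fall passed in KO cells (1.64-fold, -0.71 ± 0.24, adjusted p = 0.0268), though not without activated KO replicate 1 (0.183) or 2 (0.201), and Tfe3 was 1.25-fold lower in WT cells (-0.32 ± 0.23, adjusted p = 0.28). Over all 25771 genes tested, 1624 passed in WT cells alone and 2643 in KO cells alone. Of the 40 genes, 3 passed in WT alone (Map1lc3a, Map1lc3b and Gabarap) and 5 in KO alone (Becn1, Atg2a, Tfe3, Atg16l1 and Lamp1). For none of these 8 did the activation response itself differ between the genotypes by the test, at adjusted p-values of 0.676 to 1.

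**Figure D3:**
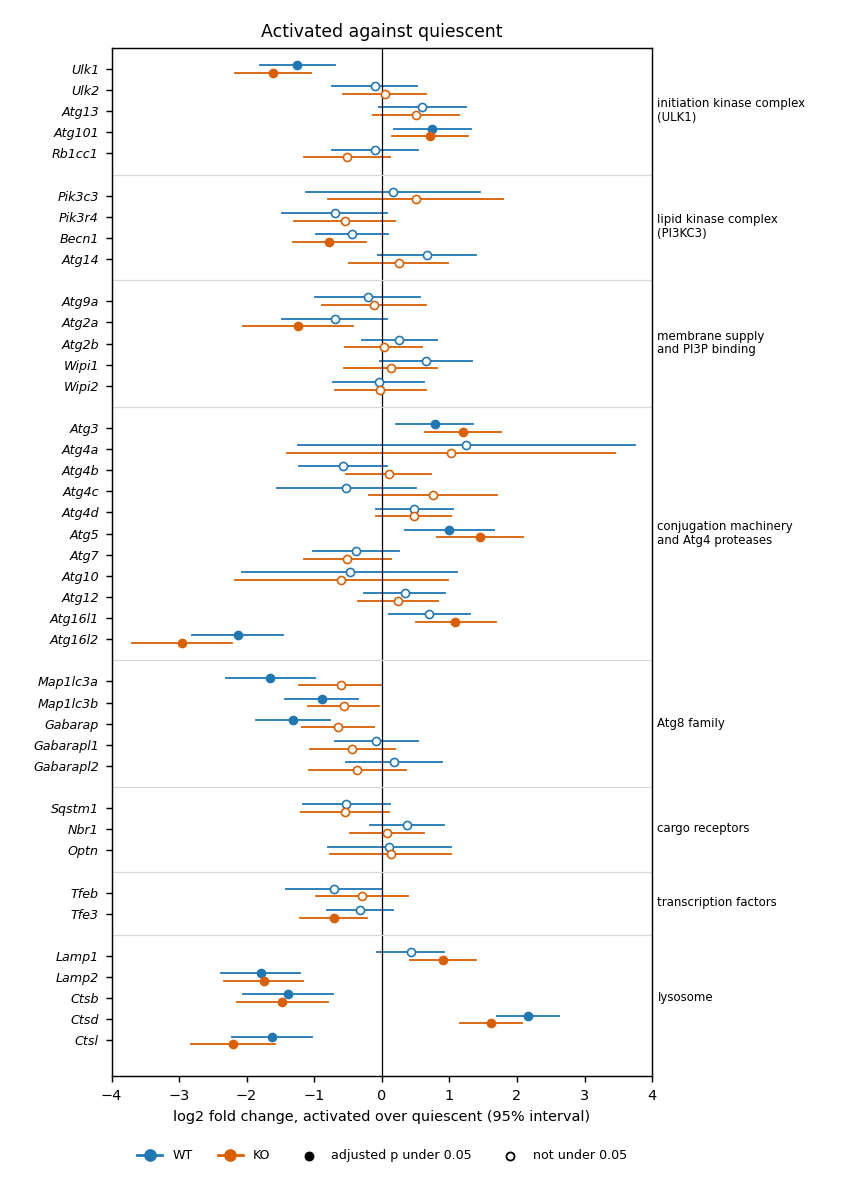
Log2 fold change of activated over quiescent cells for the 40 genes in WT and KO (points) with 95% intervals (lines); filled points have an adjusted p under 0.05 and open points do not. The log2 fold changes range from -2.13 (Atg16l2) to 2.16 (Ctsd) in WT and from -2.96 (Atg16l2) to 1.61 (Ctsd) in KO cells.

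The loss of Cxcr4 was tested in each state. In quiescent cells none of the 40 genes differed between KO and WT by the test, none had an unadjusted p under 0.05, and in none were the 4 KO and 4 WT libraries apart; over all genes 0.0155% passed, 1.74% had an unadjusted p under 0.05 and 1.7% did not overlap. The log2 fold changes ran from -0.64 to 0.36 with a median of 0. All 15 macrophage and blood cell marker genes had a higher estimate in quiescent KO cells, with a median log2 fold change of 0.84. Their summed level was 156 to 650 CPM in KO against 133 to 287 CPM in WT libraries. Of the 15, 6 had an unadjusted p under 0.05 by edgeR and none passed the test. The part of these markers in the values of the 40 genes was not tested. For 36 of the 40 genes the 95% interval of the log2 fold change, unadjusted for the number of genes, lay between -1 and 1. On counts simulated for 25771 genes this comparison recovered 28.4% of 2-fold and 90.9% of 4-fold changes. Over all genes, smaller differences in single genes were thus often not detectable at this depth and number of libraries. No such rate is given for the 40 genes alone, whose median SE was 0.24.

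The smallest p-values in quiescent cells belonged to Wipi1, Pik3c3 and Tfeb. Wipi1 was at 11.4, 21, 14.7 and 13.9 CPM in WT and 21.1, 15.2, 25.5 and 16.4 in KO libraries. These values overlapped, and the estimate was 0.36 (95% interval -0.19 to 0.91, adjusted p = 1 by edgeR). Pik3c3 was at 6.42, 6.31, 3.07 and 3.18 CPM in WT and 2.09, 6.01, 3.24 and 0.897 in KO libraries. Both genotypes were scattered, at an estimate of -0.64 (-1.65 to 0.37, adjusted p = 1 by edgeR). Tfeb, with the values given above, had an estimate of -0.27 (-0.80 to 0.26, adjusted p = 1 by edgeR).

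In activated cells none of the 40 genes passed either, against 0.0504% of all genes, and 2 had an unadjusted p under 0.05, against 8.37% of all genes. The 2 KO and 2 WT libraries were apart for 15 of the 40 genes (37.5%), against 24.7% of all genes. Groups of 2 libraries often lie apart by chance, so no difference is read from these shares. Atg16l2, at 3.85 and 4.33 CPM in KO and 9.97 and 6.57 CPM in WT libraries, was 2.07-fold lower in the KO (-1.05 ± 0.39, 95% interval -1.86 to -0.24, unadjusted p = 0.0137, adjusted p = 0.436 by edgeR). Map1lc3a, at 89.4 and 123 CPM in KO and 58.6 and 55.2 CPM in WT libraries, was 1.86-fold higher (0.90 ± 0.34, 95% interval 0.19 to 1.61, unadjusted p = 0.0161, adjusted p = 0.453 by edgeR), or by 0.59 on the log2 scale without activated KO replicate 2. Gabarap, the third by p, had 85 and 146 CPM in KO and 78.6 and 79.3 CPM in WT libraries, and an estimate of 0.55 (95% interval -0.05 to 1.15, adjusted p = 0.64 by edgeR), which came to 0.05 without activated KO replicate 2 and to 0.09 with the activated libraries numbered 1 alone. Both genotypes were apart for all 3 genes, but none of the differences passed the correction. The interval lay between -1 and 1 for 19 of the 40 genes. On counts simulated for all genes tested, 7.46% of 2-fold and 66.7% of 4-fold changes were recovered here.

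The difference between the KO effects in the 2 states passed for none of the 40 genes and for 0% of all genes, and 1 gene had an unadjusted p under 0.05, against 6.59% of all genes. That gene was Map1lc3a, at 1.03 ± 0.41 (95% interval 0.17 to 1.89, unadjusted p = 0.0218, adjusted p = 0.676 by edgeR). Next came Atg4c, a protease that processes Atg8 proteins, which was at 6.63, 7.45, 9.21 and 4.72 CPM in quiescent WT, 4.02, 6.49, 6.65 and 5.19 in quiescent KO, 5.23 and 4.38 in activated WT, and 14.6 and 4.33 in activated KO libraries. A single library, activated KO replicate 1, was high. The difference of 1.28 ± 0.67 for Atg4c (adjusted p = 0.788 by edgeR) fell to 0.14 without that library. Gabarap had a difference of 0.66 ± 0.35 (adjusted p = 0.794 by edgeR), which fell to 0.16 without activated KO replicate 2.

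**Figure D4:**
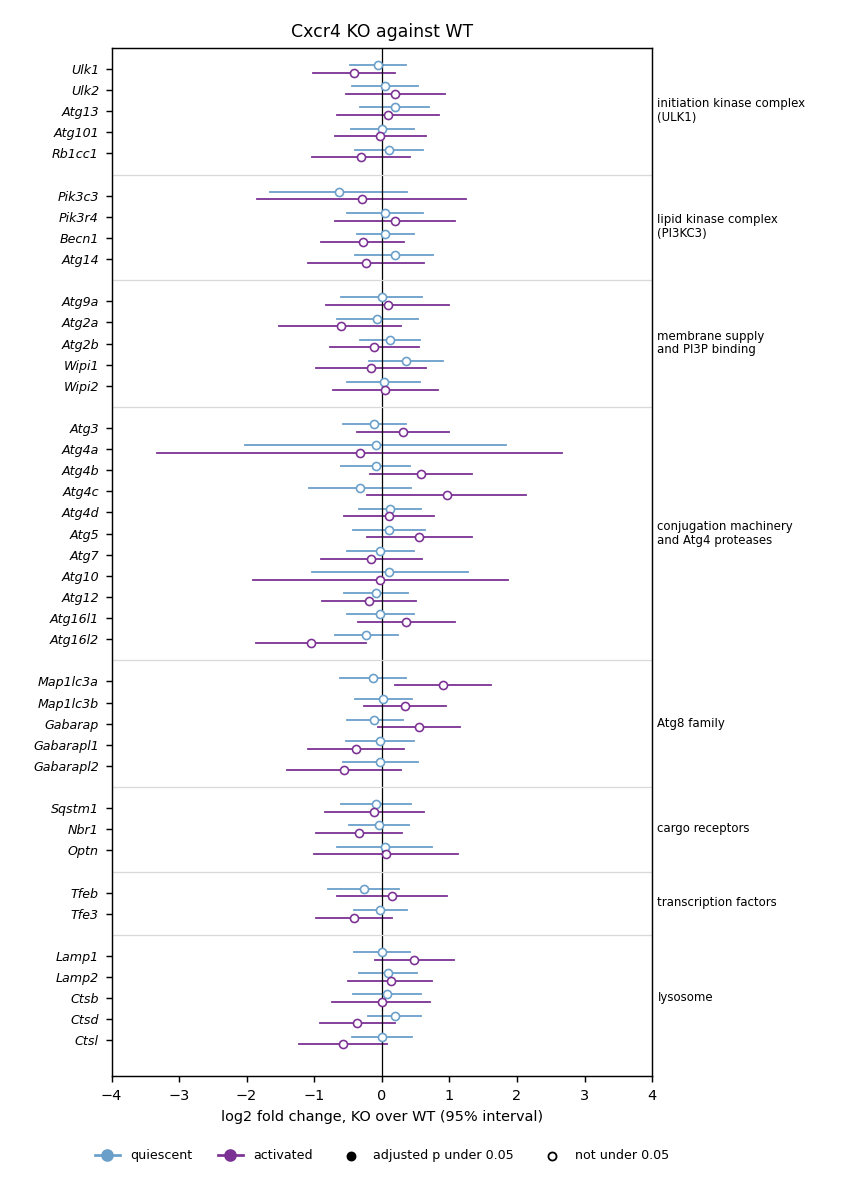
Log2 fold change of KO over WT for the 40 genes in quiescent and activated cells (points) with 95% intervals (lines); all points are open because no adjusted p is under 0.05. The intervals of Atg16l2 (-1.86 to -0.24) and Map1lc3a (0.19 to 1.61) in activated cells leave out 0, with adjusted p-values of 0.436 and 0.453.

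The other genes of the pathway were followed through 6 lists that hold 135 genes, of which 131 were tested. Of these, 18 rose and 22 fell on activation in both genotypes, and none differed between KO and WT in either state. Over all genes 9.48% rose and 14% fell in both genotypes. KO and WT differed for 0.0155% of all genes in quiescent and 0.0504% in activated cells. Of the lysosomal hydrolases more fell than rose: 13 of 32 fell and 1 rose in both genotypes, with medians of -0.90 in WT and -0.98 in KO cells, beside -0.92 and -0.96 for all genes. The 1 that rose was Gusb, beta-glucuronidase (0.93 ± 0.28, adjusted p = 0.0171 in WT; 0.75 ± 0.28, adjusted p = 0.0448 in KO, lost in 11 of 22 alternatives). The macrophage and blood cell marker genes were lower in the activated libraries too, with medians of -1.78 in WT and -2.57 in KO cells and 6 of 15 past the test in both, and their part in the fall of the hydrolases was not tested.

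The v-ATPase acidifies the lysosome, and 3 of its 15 tested subunits rose and 1 fell in both genotypes, with medians of 0.58 in WT and 0.24 in KO cells. Atp6v1g1 rose by 1.83 ± 0.26 in WT (adjusted p = 2.35e-05) and 2.05 ± 0.26 in KO cells (5.29e-06), and Atp6v0e fell (-1.11 ± 0.29, 0.00699, and -1.34 ± 0.29, 0.00142), on the log2 scale. The call of Atp6v0e in WT cells was lost without activated WT replicate 1 (adjusted p = 0.0681) or 2 (0.115). Of 17 lysosomal membrane and transport genes 3 rose and 3 fell in both genotypes. M6pr, a sorting receptor for hydrolases, rose by 1.19 ± 0.24 and 0.80 ± 0.24 (adjusted p = 0.000719 and 0.0145, the latter 0.293 without activated KO replicate 1), and Npc1, the cholesterol exporter of the lysosome, fell (-2.38 ± 0.41 and -2.78 ± 0.42, adjusted p = 0.00016 and 3.69e-05), in WT and KO cells. Among 32 genes of TORC1, AMPK and TFEB control 6 rose and 3 fell in both genotypes. Prkaa2, a catalytic subunit of AMPK, rose by 2.95 ± 0.37 and 2.83 ± 0.37 (6.12e-06 and 7.32e-06), whereas Prkab2, a regulatory subunit of the same kinase, fell (-2.61 ± 0.42 and -2.62 ± 0.42, 7.9e-05 and 6.85e-05). The muscle fibre marker genes rose in the activated libraries as given above, and their part in the results for Prkaa2 and Prkab2 was not tested.

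Among 16 receptors of selective autophagy 2 rose and 2 fell in both genotypes. Bnip3, a mitophagy receptor, rose by 2.77 ± 0.40 in WT and 3.14 ± 0.39 in KO cells (adjusted p = 3.1e-05 and 5.17e-06), and Calcoco1, a receptor for the endoplasmic reticulum, fell (-1.72 ± 0.31 and -1.40 ± 0.30, 0.000313 and 0.00143, the latter 0.0751 without activated KO replicate 1). Of 19 genes of autophagosome maturation and fusion 3 rose and 0 fell in both genotypes, Vps18 of the tethering complexes by 1.38 ± 0.33 and 1.51 ± 0.33 (adjusted p = 0.00369, or 0.109 without activated WT replicate 1, and 0.00155). For all genes the shares that rose and fell in both genotypes were 9.48% and 14%.

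**Figure D5:**
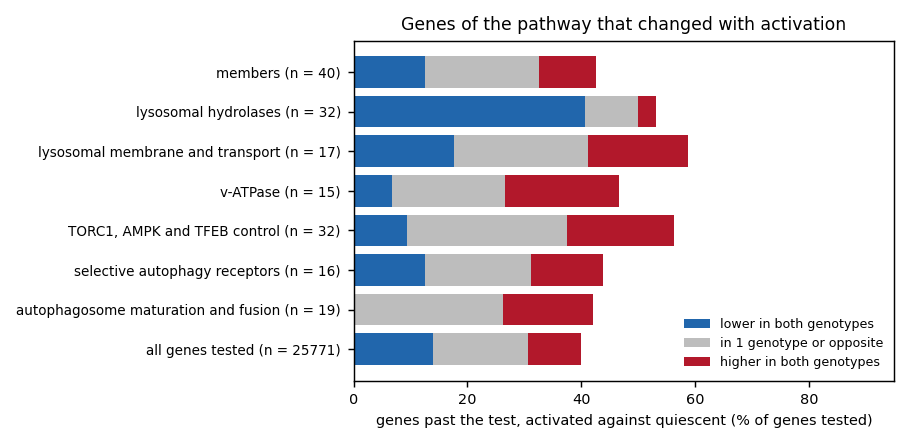
Share of the genes tested in each list (% of genes, stacked bars from 0) that passed the test of activated against quiescent cells lower in both genotypes, in 1 genotype or in opposite directions, and higher in both genotypes. Of the lysosomal hydrolases 13 of 32 fell and 1 of 32 rose in both, and of the 40 genes (members) 5 fell and 4 rose in both.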

How the data were processed

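RNA from 12 libraries of sorted satellite cells was analysed (4 WT and 4 KO quiescent, 2 WT and 2 KO activated). The authors trimmed paired-end reads (TrimGalore 0.6.0), aligned them with STAR 2.7.2a to GRCm38.p6 and counted reads per GENCODE gene with Rsubread, and deposited raw counts per gene and library, with no normalisation; strand setting and treatment of multi-mapping reads are not given in the sources used here. A second deposited table holds 1 FPKM value per group and was not used here.

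Genes were filtered with filterByExpr (25771 of 55401 kept), scaled by TMM and fitted with edgeR 4.0.16 (R 4.3.3) in 1 model with 4 group means over all libraries. The quasi-likelihood F test was adjusted by Benjamini-Hochberg over all genes tested, and a call is an adjusted p under 0.05. Fold changes are edgeR log2 estimates with SE and 95% intervals, and CPM is TMM-scaled. RPKM divides CPM by the exon length of the GENCODE M21 annotation. The authors counted reads on a later GENCODE release, so exon lengths, overlaps and copies may differ from those behind the counts. The procedure was tested on counts simulated for 25771 genes, 200 of them changed. Totals of 3172164 to 23717013 counts per library give activated libraries the lower precision.

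Values per library are given for the 3 genes with the smallest p in each KO contrast, up to 6 genes with the largest mean rise and up to 6 with the largest mean fall among those called in both genotypes on activation, and Tfeb, Tfe3, Sqstm1, Map1lc3b, Lamp1 and Ctsd; each other pathway list is shown by its largest rise and fall by the same rule, except that the largest fall among the hydrolases is not reported here. The 40 genes and the lists were chosen with earlier results of these data known. Promoters came from RefSeq (GRCm38.p6). Alternatives included other scalings and filters, DESeq2 1.42.0, leaving out each library and a replicate block. Deviations of same-numbered libraries did not correlate in every pair, so the fit has no block.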

Additional observations from a re-analysis of the deposited data

Results flagged for a closer look

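Each of the 40 genes was screened for a library far from the others of its group in the quiescent WT and quiescent KO groups (80 groups of 4 libraries). A lone high or low library was found in 6 of them, and chance alone gives about 1 in 20, or 4. Atg2b was low in quiescent WT replicate 2 (22.8 CPM, the others at 31.1 to 32.8 CPM). Atg16l1 was low in the same library (17.2 CPM against 29.3 to 30.8 CPM). Atg4a was high in quiescent WT replicate 1 (1.67 CPM against 0.385 to 0.439 CPM), a gene with few counts in every library and a near-identical copy, Atg4a-ps. Nbr1 was low in quiescent WT replicate 4 (62.3 CPM against 72.3 to 72.6 CPM), and Atg16l2 was low in quiescent KO replicate 1 (28.5 CPM against 32.5 to 33.3 CPM). Ctsb was high in quiescent KO replicate 4 (632 CPM against 330 to 361 CPM). That library had the highest summed level of macrophage and blood cell marker genes (650 CPM) and of satellite cell marker genes (8550 CPM). What part these markers have in it was not tested.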

How the results depend on the processing

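The number of the 40 genes called on activation in KO cells was 14 and fell to 9 without activated KO replicate 2 (9 to 14 over all libraries left out in turn), and the cause was not tested. In WT cells it was 12, and 8 to 13 with a library left out. With the activated libraries numbered 1 alone, a setting chosen after seeing the data, 8 genes were called in WT and 11 in KO cells. The estimate for Tfeb on activation in KO cells was -0.29 and ranged from -0.67 to 0 with a library left out, where the 0 (without activated KO replicate 1) is a change of sign before rounding. None of the 40 genes was called in any KO comparison under any alternative, DESeq2 included. Of all genes, 4 were called for KO in quiescent cells (50 without the filter on low counts), 13 in activated cells (145 by DESeq2, 334 without the filter, 0 without activated WT replicate 1 and 211 without activated WT replicate 2) and 0 for the difference of the KO effects (45 by DESeq2, 170 without the filter, 82 without activated WT replicate 2). Scaling by library size alone moved the median log2 change of all genes on activation from -0.92 to -1.03 in WT and from -0.96 to -1.07 in KO cells.

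With the replicate number as a block (replicate block), 12 of the 40 genes were called in WT (11 shared with the fit without it) and 13 in KO cells (12 shared), and 0 in the KO comparisons. Atg101 was then lost in both genotypes (adjusted p = 0.0591 and 0.0654 by edgeR) and Tfe3 in KO cells (0.0529), while Atg16l1 in WT and Gabarap in KO cells were gained (0.017 and 0.0432). Correlations of same-numbered libraries were 0.05, 0.12, -0.05 and 0.3 in quiescent cells, for numbers 1 to 4, against at most 0.08 for other pairs, and -0.02 in activated cells. Activated libraries, with fewer counts and 2 to a group, limit the size of change that could be detected.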
